A study of Oryza sativa with 3 samples.

Results

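The long peaks of OsWRKY11 on rice DNA were the regions of 300 bp or more, with a pileup under 40, in the authors' peak lists of 2 DAP-seq reactions. The pileup is the number of sequenced OsWRKY11-Halo fragments stacked at the summit, the position of highest coverage. By this rule replicate 1 had 1345 long peaks among 15980 (8.42%) and replicate 2 had 1702 among 21447 (7.94%), 3047 of 37427 over both lists. They held 18.5% and 17.5% of all bases under peaks. A further 60 and 67 peaks reached 300 bp but had a pileup of 40 or more and were left out by the rule. The regions were thus chosen by their length and pileup, and both are described here and not tested.

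DAP-seq incubates naked genomic DNA with a tagged protein made in vitro and sequences the DNA that stays bound. The DNA library, with fragments of 200 to 800 bp per the labels, came from seedlings of the rice cultivar Nipponbare. OsWRKY11 fused to the Halo tag was used in 2 reactions, called replicate 1 and replicate 2, and green fluorescent protein with the same tag (GFP-Halo) in 1 reaction, the control. All 3 libraries carry shoot as their tissue label, and their extract protocol also describes formaldehyde-fixed shoots of pUbi:OsWRKY11-Myc plants, so that how far that step applies here is not clear from the labels. Nothing in the labels states that the OsWRKY11-Halo reactions used separate preparations, and the spread between them may be technical. Both lists were called against the same GFP-Halo library, which therefore enters the values of both.

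WRKY proteins are plant transcription factors known from responses to stress and pathogens and from the control of development. Their WRKY domain contacts a short DNA element, the W-box, and promoters often carry several W-boxes close together. A peak caller joins stretches of enriched coverage that lie within a set gap, so that a long peak can hold either a broad stretch of bound fragments or several neighbouring ones. In these lists the nearest neighbouring peaks were 114 bp apart in replicate 1 and 112 bp in replicate 2, and the shortest peaks were 113 bp and 111 bp long. A genome in the build of the lists was not used here, so regions are given by position, without sequence or gene, and the W-box content of the long peaks was not examined.

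Most long peaks were only moderately long. Their median length was 370 bp in replicate 1 (quartiles 327 and 454 bp) and 369 bp in replicate 2 (quartiles 326 and 445 bp). A length of at least 400 bp was reached by 509 and 638 of them, at least 500 bp by 245 and 278, and at least 700 bp by 60 and 69. Lengths of 1 kb and more were found at 3 peaks of replicate 1, up to 1239 bp, and at 6 peaks of replicate 2, up to 1143 bp. The bound of 300 bp lay on a slope and not in a gap of the length distribution: 171 peaks of replicate 1 had a length from 290 to under 300 bp and 145 from 300 to under 310 bp, and in replicate 2 these numbers were 189 and 170.

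The rule left out peaks with a pileup of 40 or more. Of these, 32.6% in replicate 1 and 30.0% in replicate 2 were 300 bp or longer. The long peaks kept were shallow against that bound but somewhat deeper than short ones. The median pileup was 12 fragments in both lists (quartiles 11 and 14), against 10 for the 11220 and 15255 peaks under 200 bp, and 98.1% and 98.2% of long peaks had a pileup under 20. Depth therefore limits each single peak: for 15 fragments the exact 95% Poisson limits are 8.40 and 24.7, which covers counting error only. The deposited fold enrichment from the call against GFP-Halo had a median of 3.33 in replicate 1 and 3.16 in replicate 2. Short peaks, weighted so that each pileup counted as often as among the long peaks, had weighted medians of 3.21 and 3.03. Of the long peaks of replicate 1, 60.8% had a q-value no higher than 0.05, beside 29.9% of all its peaks, and of those of replicate 2, 56.2% did, beside 28.2%. Among short peaks at equal pileup these shares were 57.4% and 53.5%. The background recovered from the fold often stood at the lowest value of its list, 2.91 in replicate 1 and 3.06 in replicate 2. This held for 65.1% of long peaks in replicate 1 (58.2% of all peaks) and 58.5% in replicate 2 (52.8% of all peaks). Among short peaks at equal pileup it held for 52.3% and 47.6%. A value shared by so many peaks is a constant of the list and not a local reading of GFP-Halo. At these peaks the fold followed from the pileup alone. These values come from the same calls as the length and are a description.

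The highest fold enrichment of each list belonged to a long peak on chromosome 10. In replicate 1 it was the 842 bp region from 7646355 to 7647196, with a pileup of 31 and a fold of 8.19. Below it, replicate 2 had a 408 bp peak with a fold of 2.69 and a 266 bp peak with a fold of 7.14, whose summit lay 10 bp from that of the long peak. In replicate 2 it was the 789 bp region from 6078442 to 6079230, with a pileup of 32 and a fold of 8.12. Replicate 1 again had 2 peaks there, of 463 bp with a fold of 3.58 and of 224 bp with a fold of 6.40, and the summit of the latter was at the same base as that of the long peak. At both regions the long peak of one list thus met a strong and a weaker peak of the other. The weaker ones, of 408 and 463 bp, were themselves long peaks. The latter reached beyond the 789 bp region and shared 293 bp with it. Among peaks enriched at least 5-fold, 19 of 47 in replicate 1 and 8 of 25 in replicate 2 were long, where 8.42% and 7.94% of all peaks were, and 19 and 9 were under 200 bp. Fold depends on pileup, which was higher in long peaks, and on the background of the call. At a pileup of 19 the median fold was 5.12 for 14 long and 3.65 for 27 short peaks in replicate 1. There, 57.1% and 25.9% stood on the lowest background. In replicate 2 the medians were 4.19 for 14 long and 3.08 for 19 short peaks, with 35.7% and 0% on it. How far either accounts for the counts was not tested.

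The summits of long peaks lay away from the centre more often than those of short peaks. Cutting each peak into 3 equal parts, the middle part held the summit in 33.7% of long peaks of replicate 1 (95% Wilson interval 31.2% to 36.2%) and 31.3% of replicate 2 (29.1% to 33.5%), close to an even spread. Among short peaks at equal pileup it held 62.7% and 61.7%, and among short peaks without weighting 48.0% and 48.5%. Along the long peaks, the share of summits was highest in segment 3 of 10 in replicate 1 (13.2%) and in segment 2 in replicate 2 (14.9%), with a second rise in segments 8 and 9 (12.1% and 11.8% in replicate 1, 12.7% and 13.6% in replicate 2), while segments 5 and 6 held 9.52% to 10.6%. The summit lay a median of 94 bp in replicate 1 and 90 bp in replicate 2 from the nearer end, which is about 1/4 of the median length. In short peaks that distance had a weighted median of 52 and 51 bp. The first and last 10% of bases together held 10.3% and 9.17% of the summits of long peaks. Among short peaks at equal pileup they held 3.66% and 3.97%. Without weighting they held 9.30% and 9.03% of the summits of short peaks, close to the long peaks.

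**Figure D1:**
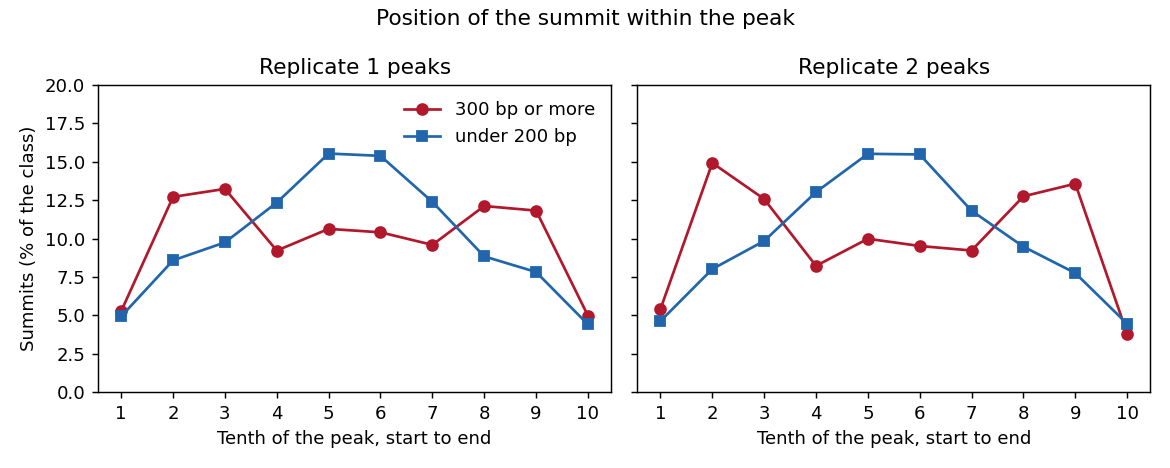
Position of the summit within the peak, in 10 equal segments from start to end (x axis), as a share of all summits of the class (y axis, %), for peaks of 300 bp or more and peaks under 200 bp with a pileup under 40. Short peaks are not weighted by pileup here. Summits of short peaks crowd in segments 5 and 6, and those of long peaks in segments 2, 3, 8 and 9.

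The next comparison asked whether the long peaks of one reaction were found in the other. Since a long region is more easily overlapped, the summit, a single base, was used. The length of the peaks in the other list still enters, since a longer one holds a given base more easily. The measure was whether the summit lay inside any peak of the other list. This was the case for 464 of 1345 long peaks of replicate 1 (34.5%, 95% Wilson interval 32.0% to 37.1%), where 15.1% of all peaks of the list met it. It was the case for 456 of 1702 long peaks of replicate 2 (26.8%, 24.7% to 28.9%), where 11.3% of all peaks did. Short peaks at equal pileup met it in 16.5% and 11.5% of cases. The peaks of the other list together covered 1.07% and 0.808% of the genome up to the last peaks.

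Stratified by pileup, the odds of finding the summit in the other list were 2.82 times as high for long as for short peaks in replicate 1 (95% interval 2.45 to 3.24, n = 1342 long and 11210 short peaks, two-sided Cochran-Mantel-Haenszel p = 3.0e-51, also after adjustment over the lists). In replicate 2 they were 2.94 times as high (2.58 to 3.36, n = 1699 and 15244, p = 3.14e-60, adjusted p = 6.28e-60). Peaks are not replicates, neighbouring peaks are not independent, and the lists share their control, so these p-values describe the 2 lists and not repeated experiments. Measured instead by a summit of the other list within 100 bp, the odds ratios were lower, at 1.95 and 2.13. By summits inside peaks, on the lowest background, where peaks of equal pileup also have equal fold, the odds ratios were 2.858 and 3.004. The odds ratio was above 1 on each of the 12 chromosomes in both lists, between 1.89 on chromosome 11 and 4.29 on chromosome 9 in replicate 1 and between 1.31 on chromosome 12 and 4.48 on chromosome 2 in replicate 2. Its interval included 1 on chromosome 12 of replicate 2 (0.738 to 2.31) and stayed above 1 elsewhere.

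The share was higher for long peaks at each pileup from 9 to 21 in both lists, and the Wilson intervals of long and short peaks were apart at each pileup from 10 to 16. At the median pileup of 12, the summit was found in the other list for 74 of 244 long peaks of replicate 1 (30.3%, 24.9% to 36.4%) and 179 of 1460 short ones (12.3%, 10.7% to 14.0%). In replicate 2 it was found for 77 of 339 long peaks (22.7%, 18.6% to 27.5%) and 193 of 1987 short ones (9.71%, 8.49% to 11.1%). At a pileup of 15 the shares were 48.6% of 109 long and 24.8% of 218 short peaks in replicate 1, and 37.6% of 125 and 20% of 290 in replicate 2. At a pileup of 9 in replicate 2 they were 6.94% of 72 (3.003% to 15.2%) and 5.34% of 2994 (4.59% to 6.21%), and these intervals overlapped. They also overlapped at a pileup of 17, with 50% of 44 long (35.8% to 64.2%) and 33.8% of 65 short peaks (23.5% to 45.96%) in replicate 1 and 44.4% of 36 (29.5% to 60.4%) and 22.8% of 79 (14.9% to 33.2%) in replicate 2, at 19 to 21 in replicate 1 and at 21 in replicate 2, with 6 to 14 long peaks each. Above 21 no pileup had more than 5 long peaks.

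**Figure D2:**
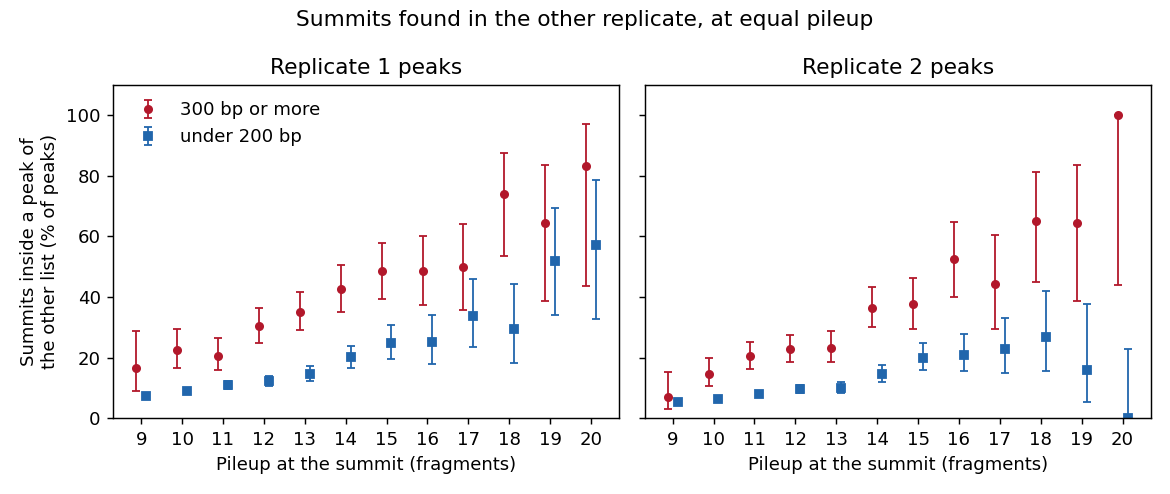
Share of peaks whose summit lies inside a peak of the other list (y axis, %) against the pileup at the summit (x axis, fragments), for peaks of 300 bp or more and peaks under 200 bp; bars are 95% Wilson intervals. At a pileup of 12 the long peaks stand at 30.3% in replicate 1 and 22.7% in replicate 2, and the short peaks at 12.3% and 9.71%.

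Over all pileups under 40, recovery rose with each class of length. In replicate 1 the summit was found in the other list for 9.81% of peaks under 150 bp, 20.4% of those from 250 to under 300 bp, 28.5% from 300 to under 350 bp, 36.7% from 400 to under 500 bp and 56.7% (44.1% to 68.4%, n = 60) from 700 bp. In replicate 2 the shares of the same classes were 7.60%, 15.4%, 19.5%, 30.0% and 52.2% (40.6% to 63.5%, n = 69). Pileup rose along with length, from a median of 10 under 150 bp to 15 from 700 bp in both lists. At the fixed pileup of 12 the rise was not steady: from 300 to under 350, 350 to under 400, 400 to under 500 and 500 to under 700 bp the shares were 27.7%, 25%, 25% and 41.7% in replicate 1 (n = 94, 56, 52 and 36) and 22.1%, 23.4%, 21.4% and 24.3% in replicate 2 (n = 136, 77, 84 and 37), beside 10.9% and 8.19% under 150 bp. At that pileup, peaks from 200 to under 250 bp stood at 21.7% in replicate 1 (n = 313) and 14.8% in replicate 2 (n = 419). Those from 250 to under 300 bp stood at 23.8% (n = 164) and 14% (n = 250). In replicate 1 these shares were thus near those from 300 to under 500 bp. Peaks just under the bound (290 to under 300 bp) and just over it (300 to under 310 bp) had their summits found in 22.8% and 23.4% of cases in replicate 1 and in 20.1% and 16.5% in replicate 2. By overlap over at least 50% of the shorter peak, 657 long peaks of replicate 1 (48.8%) and 673 of replicate 2 (39.5%) had a counterpart, where 17.6% and 13.1% of all peaks did. The odds ratio on this measure, into which length enters, was 5.02 and 5.24.

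**Figure D3:**
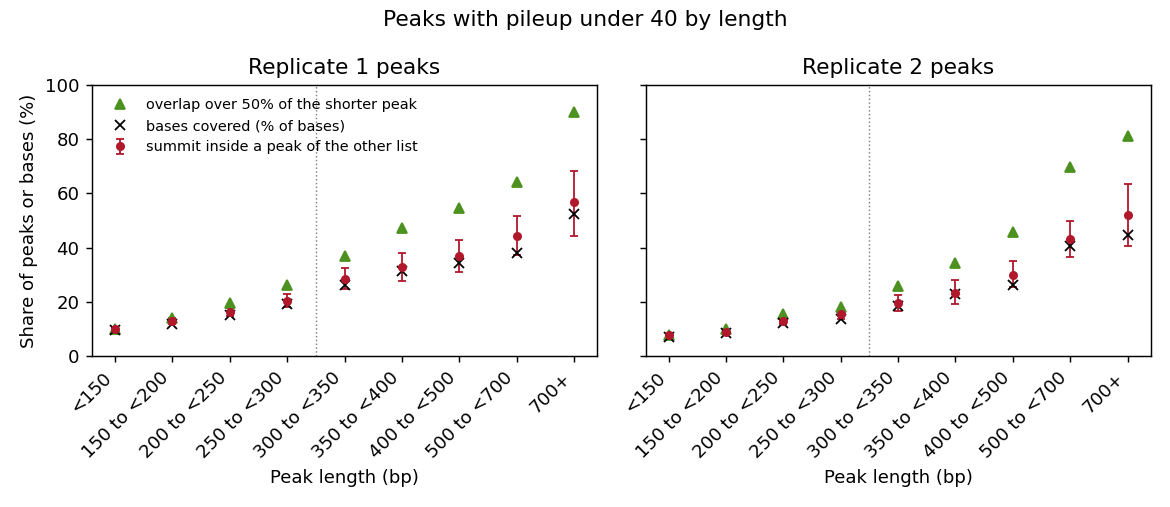
Share of peaks with the summit inside a peak of the other list (circles, bars are 95% Wilson intervals), share overlapped over at least 50% of the shorter peak (triangles) and share of bases covered by the other list (crosses) against peak length (x axis, bp), for peaks with a pileup under 40. The dotted line marks 300 bp; the circles climb to 56.7% of the longest peaks in replicate 1 and to 52.2% in replicate 2.

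A long peak seldom met several peaks of the other list. Of the 1345 long peaks of replicate 1, 585 were touched by no peak of replicate 2, 684 by 1, 75 by 2 and 1 by 3. Of the 1702 of replicate 2, 950 were touched by none, 689 by 1 and 63 by 2. Thus 5.65% (95% Wilson interval 4.54% to 7.02%) and 3.70% (2.90% to 4.71%) were touched by 2 or more, against 0.526% and 0.336% of all peaks. Length enters this contrast, since neighbouring peaks lay at least 112 bp apart and a short peak has little room for 2. Only 1 of 11220 short peaks of replicate 1 and 2 of 15255 of replicate 2 were touched by 2 or more. Several short peaks, each under 200 bp, lay under 15 long peaks of replicate 1 (1.12%, 0.677% to 1.83%) and 13 of replicate 2 (0.764%, 0.447% to 1.30%). Counting only peaks that shared at least 50% of the shorter peak left 31 and 30 long peaks with 2 or more. Long peaks with 2 or more had a median length of 512 bp and 552 bp, those with 1 of 382 bp and 396 bp, and those with none of 351 bp and 348 bp. The share rose to 23.3% and 23.2% from 700 bp.

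Each of these 15 and 13 long peaks met 2 short peaks, and the 3 of each list with most bases covered by them are given here. On chromosome 2, the 764 bp region from 28038304 to 28039067 of replicate 1 covered peaks of 197 and 192 bp, with folds of 3.45 and 3.61 beside its own 3.10. Its summit lay between them and in neither. Also on chromosome 2, the 723 bp region from 29693504 to 29694226, with a fold of 4.35, met peaks of 168 and 191 bp with folds of 2.71 and 4.68, again with its summit in neither. On chromosome 3, the 517 bp region from 8357853 to 8358369 covered peaks of 167 and 158 bp. Its own summit was 1 bp from that of the weaker of them (fold 2.46), while the stronger (fold 5.41) had its summit 197 bp away. The 3 of replicate 2 lay on chromosome 3 from 9674116 to 9674704 (589 bp), on chromosome 1 from 29632484 to 29632982 (499 bp) and on chromosome 4 from 28286485 to 28286955 (471 bp), and the summit of each was inside a replicate 1 peak.

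The 5 longest peaks of each list all met peaks of the other, but rarely along their whole length. The 1239 bp peak of replicate 1 on chromosome 5 from 22780452 to 22781690, with a pileup of 15 and a fold of 4.09, was met by a single 590 bp peak over 47.6% of its bases, with summits 601 bp apart. The 1129 bp peak on chromosome 10 from 19335967 to 19337095 was covered over 23.3% by peaks of 184 and 156 bp. The 1028 bp peak on chromosome 1 from 41467219 to 41468246 was the third longest of replicate 1, and its counterpart of 1112 bp, from 41467383 to 41468494, the second longest of replicate 2. They shared 864 bp, had folds of 3.76 and 3.94, and their summits lay 239 bp apart. The other 2 of replicate 1, of 982 and 960 bp on chromosomes 10 and 1, were covered over 33.7% and 23.6%. None of these 5 had its summit inside a replicate 2 peak.

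Of the 5 longest of replicate 2, 4 had their summit inside a replicate 1 peak. The longest, 1143 bp on chromosome 2 from 18459922 to 18461064, was covered over 80.0% by peaks of 783 and 374 bp. It had a pileup of 27 and a fold of 2.92, on a recovered background of 8.58 fragments, where the lowest of the list is 3.06. The 1092 bp peak on chromosome 11 from 23679815 to 23680906 and the 1065 bp peak on chromosome 2 from 3591659 to 3592723 each covered 2 peaks, with their own summits 20 bp and 7 bp from the stronger of these. The 1019 bp peak on chromosome 2 from 25554400 to 25555418 met a single 200 bp peak, 608 bp from its summit.

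**Figure D4:**
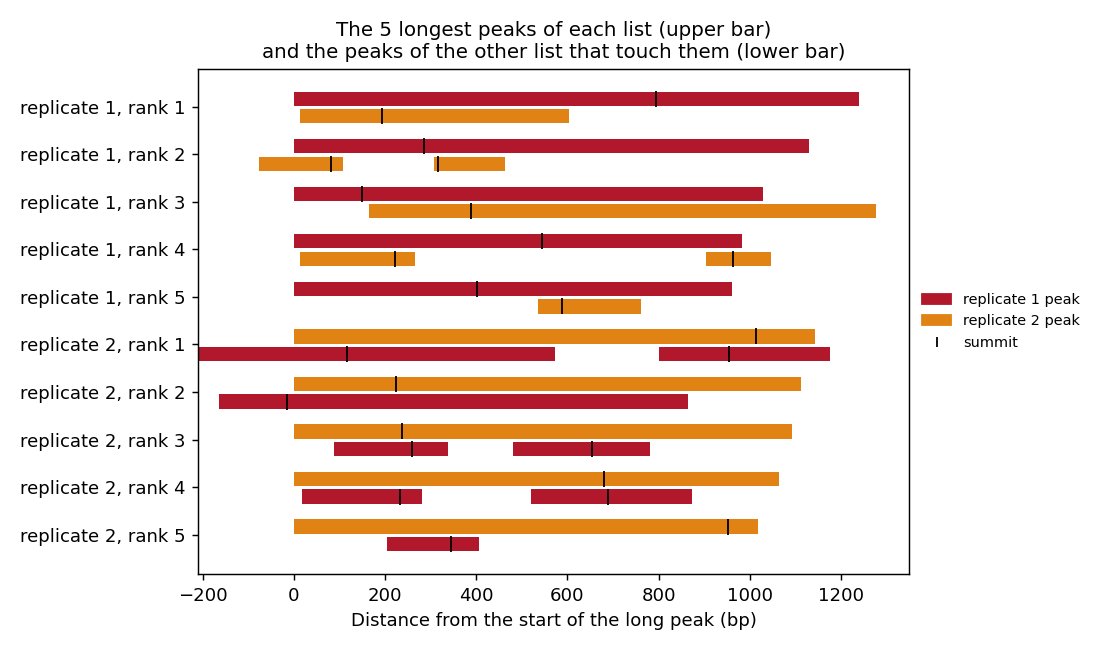
The 5 longest long peaks of each list (upper bar of each row) and the peaks of the other list that touch them (lower bar), by distance from the start of the long peak (x axis, bp); ticks mark summits. In 5 of the 10 rows the lower bar is split into 2 peaks, and the bases covered run from 19.6% to 84.0% of the long peak.

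Inside the long peaks, the share of summits covered by the other list was close to the share of all bases covered in peaks of like length. From 500 to under 700 bp the summit was covered in 44.3% of peaks and 37.9% of all bases were in replicate 1, and 43.1% and 40.8% in replicate 2, and in each of the 5 length classes from 300 bp the summit share was the higher in both lists. The share of bases lay inside the Wilson interval of the summit share in each of these classes. Pooled over lengths, which gives long regions more weight, the peaks of the other list covered 33.5% of all bases of the long peaks of replicate 1 and 27.0% of those of replicate 2, beside the 34.5% and 26.8% found at summits. Coverage was lower at the ends, 27.4% and 25.5% in the outermost segments of 10 in replicate 1 and 21.1% and 22.5% in replicate 2. Summits were also fewer there, with 5.28% and 4.98% of them in replicate 1 and 5.41% and 3.82% in replicate 2. How far this raised the summit share was not tested. Where the summit lay outside the middle part, it was covered in 32.5% of 892 long peaks of replicate 1 (29.5% to 35.7%) and the mirror base at equal distance from the other end in 27.6% (24.7% to 30.6%). In replicate 2 these shares were 25.6% of 1170 (23.2% to 28.2%) and 23.7% (21.3% to 26.2%). Counted within the same peaks, only the summit was covered at 155 and only the mirror base at 111 in replicate 1, and at 157 and 134 in replicate 2; these paired counts were not tested. A peak of the other list touched 296 long peaks in each list without reaching the summit.

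The counterparts of long peaks were described by their length. Since the long peaks were chosen for length in their own list and the counterparts were not, these lengths are a description, and among short peaks the counterpart was the longer one in 908 of 1309 cases in replicate 1 and 944 of 1297 in replicate 2. Among the 657 long peaks of replicate 1 with an overlap over 50% of the shorter peak, the counterpart with the nearest summit had a median length of 279 bp. It was itself a long peak in 293 cases (44.6%, 95% Wilson interval 40.8% to 48.4%) and under 200 bp in 195 (29.7%, 26.3% to 33.3%). In replicate 2 the median was 270 bp, with 287 of 673 long (42.6%, 38.96% to 46.4%) and 213 under 200 bp (31.6%, 28.2% to 35.3%). Counterparts of short peaks at equal pileup had weighted median lengths of 186 and 182 bp, and 17.4% and 15.7% of them were long peaks. The summits of long peaks lay a median of 94 bp and 105 bp away from those of their counterparts, and those of short peaks 36 and 38 bp at equal pileup. Longer peaks leave more room between the summits of a pair, so these distances are a description too.

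A total of 293 long peaks of replicate 1 were paired with a long peak of replicate 2, which is 21.8% of the long peaks of replicate 1. They involved 291 long peaks of replicate 2, or 17.1%, and lay on all 12 chromosomes. The shared stretch made up a median of 64.3% of the joint span (quartiles 48.8% and 77.7%), and the starts and ends differed by a median of 82 and 95 bp. Both ends fell within 25 bp at 16 pairs. Summits were a median of 121 bp apart, within 10 bp at 19 pairs and over 200 bp apart at 93 pairs. They lay on opposite sides of the midpoints of their peaks in 131 pairs (44.7%). Since the pairs were formed by overlap, the shared stretch is given as a description.

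The 5 such pairs whose lower fold was highest had folds between 4.35 and 5.41. The first, on chromosome 7 from 3268230 to 3268565, had folds of 4.86 and 5.41 (5.14 ± 0.391, mean ± SD, n = 2) and summits 38 bp apart. On chromosome 12 from 5912335 to 5912936 the folds were 4.86 and 4.68 (4.77 ± 0.131, SD, n = 2), the pileup was 18 in both lists and the summits lay 13 bp apart. The pair on chromosome 8 from 5886794 to 5887200 had folds of 4.61 and 4.92, and its summits lay 137 bp apart. The pairs on chromosome 4 from 30506036 to 30506555 and on chromosome 3 from 22809196 to 22809597 had mean folds of 4.89 ± 0.687 and 4.88 ± 0.753 (SD, n = 2). The means of the 5 pairs differed from one another by less than the largest spread between replicates. All but the replicate 2 peak on chromosome 4 stood on the lowest background of their list.

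Long peaks also had close neighbours in their own list. Another peak of the same list lay within 1 kb of 414 long peaks of replicate 1 (30.8%, 28.4% to 33.3%), where 17.0% of all peaks had such a neighbour, and of 476 of replicate 2 (28.0%, 25.9% to 30.1%), where 18.1% did. Among short peaks at equal pileup the shares were 16.3% and 17.1%.

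Long peaks were spread over all 12 chromosomes. They were densest on chromosome 1 in replicate 1, at 4.56 per Mb (exact 95% Poisson interval 3.94 to 5.24), and on chromosome 2 in replicate 2, at 5.31 per Mb (4.59 to 6.12). They were sparsest on chromosome 5 in replicate 1 (2.68 per Mb, 2.12 to 3.33) and on chromosome 9 in replicate 2 (3.74 per Mb, 2.99 to 4.62). In the other list these chromosomes had 4.99, 3.87, 4.08 and 3.69 long peaks per Mb, in the same order. Among peaks with a pileup under 40, the long share ran from 6.71% on chromosome 5 (5.43% to 8.28%) to 10.4% on chromosome 3 (8.94% to 12.1%) in replicate 1, and from 6.56% on chromosome 9 (5.35% to 8.04%) to 9.20% on chromosome 2 (8.04% to 10.5%) in replicate 2. Set against short peaks, the counts per chromosome passed a chi-square test that takes each peak as independent in replicate 1 (chi-square 25.3, 11 degrees of freedom, p = 0.00825, adjusted over the 2 lists p = 0.0165) and narrowly in replicate 2 (chi-square 20.2, p = 0.0427, adjusted p = 0.0427). The chi-square call was lost from 250 bp in replicate 1 (p = 0.453) and against all peaks under 300 bp in replicate 2 (p = 0.0502). Peaks were unevenly spread along the chromosomes, as the windows below show, and their independence was not shown. These p-values may thus be too small, and a difference in spread is not established by them.

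**Figure D5:**
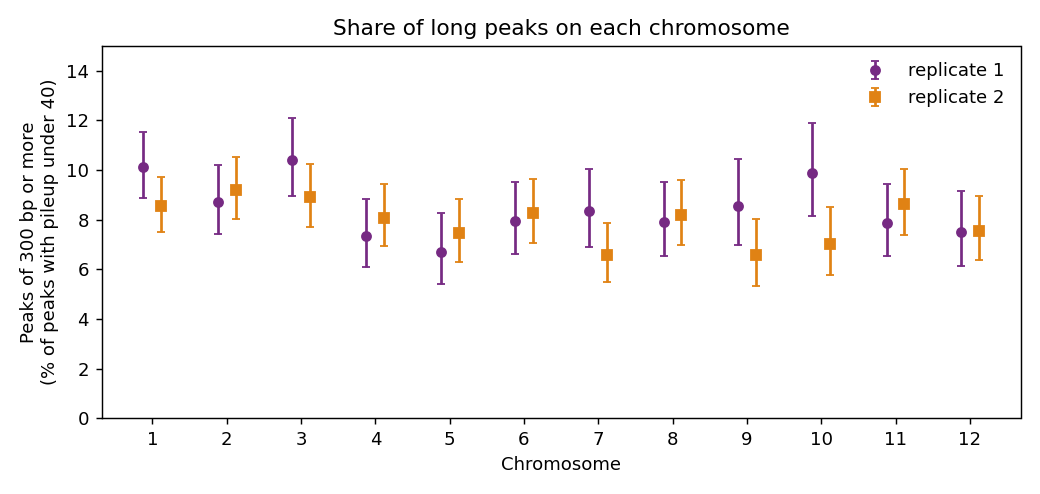
Long peaks as a share of all peaks with a pileup under 40 (y axis, %) on each chromosome (x axis) in replicate 1 (circles) and replicate 2 (squares); bars are 95% Wilson intervals. The shares lie between 6.56% and 10.4%, and most intervals overlap.

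On a scale of 1 Mb, 341 of 368 whole windows held a long peak in replicate 1 and 359 in replicate 2, with a median of 3 and 4. The variance of the count of long peaks over windows was 1.84 and 1.59 times its mean, and for all peaks 2.13 and 2.60 times. The Poisson limits above assume an even density and may thus be too tight. The highest count of replicate 1 was 16 between 17000001 and 18000000 on chromosome 9, which is 29.1% of the 55 peaks there, and replicate 2 had 10 in that window. The highest counts of replicate 2 were 15, between 9000001 and 10000000 on chromosome 2 and between 26000001 and 27000000 on chromosome 11. The latter window was among the first 3 of both lists, with 13 long peaks in replicate 1.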

How the data were processed

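DAP-seq data of rice were analysed from the authors' 2 peak lists, each from 1 OsWRKY11-Halo library (replicate 1 and replicate 2, numbered as in the titles) called against the 1 GFP-Halo library, as the peak names show. Per the submitters' processing notes, the tools named are MACS2 2.2.7.1, BWA 0.7.12-r1039 and Trimmomatic 0.36, without their roles or options. The build of the genome and the read totals were not given in the sources used here. Per the file headers, each peak has positions, a length, a pileup, −log10 values of p and q, and a fold enrichment. As deposited, the pileup is a coverage signal in whole fragments and the fold is a ratio to the background used in the call. All of these values are the authors' own per peak. The lists contain no fold under 2.00 and q-values up to 0.644 and 0.530, so weak peaks are included. No other filter was applied.

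The background used in the call at each peak was recovered by dividing 1 plus the pileup by the fold and subtracting 1. Values within 0.001 of the lowest value of the list counted as the lowest background. Values of peaks under 200 bp were weighted to the pileups of the long peaks, and 3 long peaks of each list had a pileup at which no short peak occurred. Odds ratios came from a Cochran-Mantel-Haenszel test with pileup as stratum, and chromosome spread from a chi-square test. The counting of overlaps was tested on simulated lists. Named regions were the 5 longest of each list, the 3 with most short peaks under them (ties by the bases these covered), and the 5 long pairs whose lower fold was highest; the regions of highest fold, the windows, the mirror base and the neighbours within 1 kb were added after values were seen. The bounds on length and pileup, the members and all comparisons were chosen with earlier results of these data known. A gene table of the assembly ASM3414082v1 is not shown to be in the build of the lists and was not used. Statistics were computed with statsmodels 0.14.6, scipy 1.17.1 and numpy 2.4.6, tables with pandas 2.3.3 and figures with matplotlib 3.10.9 under Python 3.11.15.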

Additional observations from a re-analysis of the deposited data

How the results depend on the processing

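The odds ratio of long against short peaks stayed above 1 and past the threshold in both lists under all alternatives run. It ranged from 1.95 (summits within 100 bp) to 5.44 (overlap of 1 bp) in replicate 1 and from 2.13 to 5.24 in replicate 2. A logistic fit over all peaks with a pileup under 40 gave 1.96 and 2.01 per doubling of length. Among these alternatives, only the restriction to the lowest background was added after values were seen. All comparisons were chosen with earlier results of these data known. The share of long peaks found in the other list depended on its definition: in replicate 1 and replicate 2 it was 28.4% and 21.8% from 250 bp, 41.8% and 36.7% from 400 bp, 26.6% and 19.98% for summits within 100 bp, 48.8% and 39.5% for an overlap over 50% of the shorter peak, and 56.5% and 44.2% for an overlap of 1 bp. Limited to q-values up to 0.05 on either side, it was 28.6% in replicate 1 and 25% in replicate 2, where fewer peaks were left to be met. The number of long peaks was 2371 and 3050 from 250 bp and 509 and 638 from 400 bp. Long peaks with 2 or more peaks of the other list fell to 31 and 30 at an overlap over 50%. The chi-square test of chromosome spread takes each peak as independent, so its p-values may be too small. It missed the threshold from 250 bp in replicate 1 (chi-square 10.9, p = 0.453) and against all peaks under 300 bp in replicate 2 (chi-square 19.7, p = 0.0502). The test passed it against all peaks under 300 bp in replicate 1 (chi-square 26.4, p = 0.00575) and from 250 bp in replicate 2 (chi-square 24.8, p = 0.00979). The cause of these differences was not tested. Leaving out a replicate leaves no list to compare with. No paired analysis was possible because the only GFP-Halo library served as the control of both calls. With a median pileup of 12 fragments, the ends and summits of single peaks rest on few fragments.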
